A study of Mus musculus with 3 samples.

Results

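Homozygous Rbm20 knock-in muscle was set against wild-type muscle, across every named gene, for the amount of RNA and for the use of exons. The homozygous mice carry the missense change I538T in both copies of Rbm20, placed there with CRISPR/Cas, and the wild-type mice carry none. A heterozygous library, with 1 changed copy, is given beside named values and took no part in choosing them. All 3 libraries are of skeletal muscle at 12 weeks of age, 1 library for each genotype. The labels do not name the muscle, the sex or the strain, nor do they say whether several mice were pooled. Members were all genes with a name that the authors had not merged with an overlapping gene, which left 52071 genes and 429043 of the 469293 exonic parts in the table. Exonic parts are the pieces left when exons are divided wherever the boundaries of a gene's transcripts fall.

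RBM20 is a nuclear RNA-binding protein of striated muscle. It binds short repeats in introns and holds back the splicing of nearby exons, most famously in Ttn, the gene of the giant elastic protein titin. Skeletal muscle is a mosaic of slow fibres, which use the slow myosin Myh7 with slow troponins and run on oxidative metabolism, and fast fibres, which use other myosins and troponins. Adult muscles also splice many contractile and cytoskeletal genes differently by fibre type and by age.

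The changed base is T1613C per the study's design text, and position 1613 counted from 1 at the A of the start codon falls in the codon for residue 538. The stretch of Rbm20 exon around it is shown because it is the one designed difference between the libraries. It lies on the plus strand at chr19:53832697-53832759 in GRCm38, from the GENCODE M21 transcript, and capitals mark the reference codon for isoleucine at residue 538.
Rbm20 reference: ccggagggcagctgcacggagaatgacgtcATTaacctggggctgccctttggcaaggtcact

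The deposited counts hold no base calls and cannot show which allele was read. Rbm20 itself was lower in homozygous muscle, at 2.97 RPM against 10.8 in heterozygous and 13.0 in wild-type muscle (RPM, the gene's summed inclusion reads scaled to a library total of 1000000). The ratio of homozygous to wild type was 0.229 (95% counting interval 0.210 to 0.249). The coding part that holds the changed codon, at 53832646 to 53832789, had 4 inclusion reads in homozygous, 140 in heterozygous and 80 in wild-type muscle. Of 15 coding parts, 6 had no read at all in homozygous muscle, against 0 in heterozygous and 0 in wild-type muscle. The last part of the gene, at 53865381 to 53867080, held 436 of the 641 homozygous reads, 609 of the 2866 heterozygous reads and 1350 of the 3110 wild-type reads.

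Inclusion reads summed to 215923385 in homozygous, 265358773 in heterozygous and 239837797 in wild-type muscle, where a read that spans several parts adds to each of them. Genes at 5 RPM or more numbered 7620, 8679 and 8458 in the same order of libraries. The 10 most abundant genes took 29.1% of reads in homozygous, 21.7% in heterozygous and 23.7% in wild-type muscle. Markers of muscle fibres were abundant in every library: the skeletal actin Acta1 stood at 35892 RPM in homozygous, 27232 in heterozygous and 27366 in wild-type muscle. A single library stood for each genotype, so the differences have no replicate check and no p-value is given. Intervals are 95% and reflect counting error only, with each count taken as an independent read. Copies of 1 molecule, and reads that add to several parts, are counted separately, so even the counting error can be wider than shown. The muscle dissected, the animal and the library cannot be told apart from the genotype.

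Of 8847 genes measured, meaning 5 RPM or more in homozygous or wild-type muscle, 1065 (12%) differed at least 2-fold on the scale of RPM plus 1. Lower levels were the common direction, with 889 genes lower (10%) and 176 higher (1.99%) in homozygous muscle. The median gene stood at a log2 ratio of -0.18, so a small shift toward lower values ran through the whole table. After centring on that median, 611 genes were lower and 289 higher. The split also moved with the total used: scaled to a total without the 50 most abundant genes, 1114 were lower and 415 higher. Most genes differed little, and 69.3% lay within 1.5-fold. Calls were more frequent among scarce genes. Where the mean of the 2 libraries was over 5 and up to 10 RPM, 13.9% of 2301 genes were lower and 2.61% higher. The 742 genes with a mean of at most 5 RPM were measured only because 1 library was above the other, so their calls are partly set by the minimum. Where it was over 1000 RPM, 2 of 91 genes were lower and 0 were higher.

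**Figure D1:**
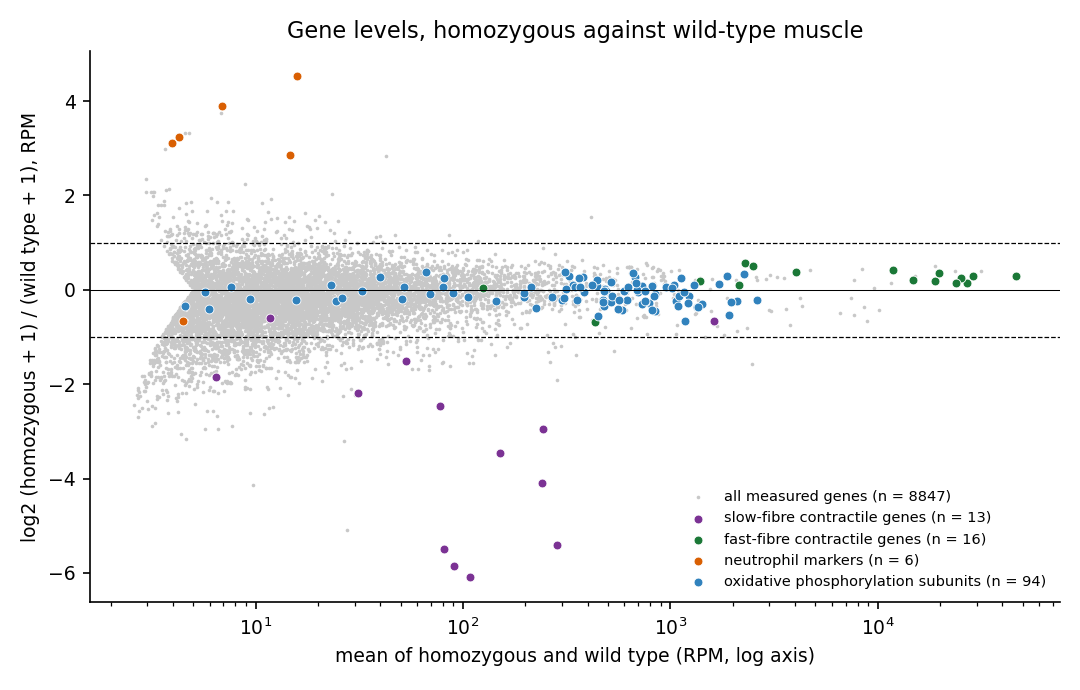
Each point is 1 of 8847 measured genes, placed by the mean of its levels in homozygous and wild-type muscle (RPM, log axis) and by the log2 ratio of homozygous to wild type on RPM plus 1. Dashed lines mark 2-fold. The slow-fibre genes hang below the cloud at up to -6.09, the fast-fibre genes lie close to 0 at the right, and 5 of the 6 neutrophil markers lie above 2.

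The largest differences in level were in the contractile genes of slow fibres. Of 14 genes listed, 13 were measured, and 11 of them were at least 2-fold lower in homozygous muscle, beside 10% of all measured genes. Tnnc1, Myh7, Tnni1 and Sln reached 5 RPM in wild-type muscle and not in homozygous muscle, and the other 9 did in both. None was higher, and the list's median log2 ratio was -2.95 beside -0.18 for all genes. Tnnc1, the troponin C of slow and cardiac muscle, had 2.15 RPM in homozygous, 77.2 in heterozygous and 214 in wild-type muscle, and was the gene furthest down of all. That is 99.5-fold lower (ratio 0.0100, interval 0.00915 to 0.0110). Myh7, the slow myosin heavy chain, had 2.13 RPM in homozygous, 42.5 in heterozygous and 179.7 in wild-type muscle (chromosome 14; 84.5-fold lower). The slow troponin I gene Tnni1 had 2.57, 47.95 and 160.3 RPM in homozygous, heterozygous and wild-type muscle, and the slow troponin T gene Tnnt1 had 12.1, 163 and 555 RPM. In all of these the heterozygous library stood between the other two.

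The other 7 called members had the same order of libraries with smaller ratios. Myl2, the slow regulatory light chain, had 25.7 RPM in homozygous, 133 in heterozygous and 455 in wild-type muscle. Myl3, the slow essential light chain, had 24.4, 210.2 and 278 RPM in the same libraries, so its heterozygous level was nearer wild type than homozygous. Tpm3, the slow alpha-tropomyosin, had 54.9 RPM in homozygous, 193 in heterozygous and 431 in wild-type muscle. Csrp3, a Z-disc protein of slow fibres and heart, was at a log2 ratio of -2.46, the slow calcium pump Atp2a2 at -2.18, its inhibitor sarcolipin (Sln) at -1.85 and the Z-disc protein calsarcin-1 (Myoz2) at -1.52. The myoglobin gene Mb and the slow calsequestrin Casq2 did not reach 2-fold, at -0.66 and -0.59, and Mb was highest in the heterozygous library (1259 RPM in homozygous, 2250 in heterozygous and 1991 in wild-type muscle). Myh7b stayed under the minimum level in both libraries. In bulk tissue, fewer slow fibres and less of these RNAs in each fibre cannot be told apart.

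**Figure D2:**
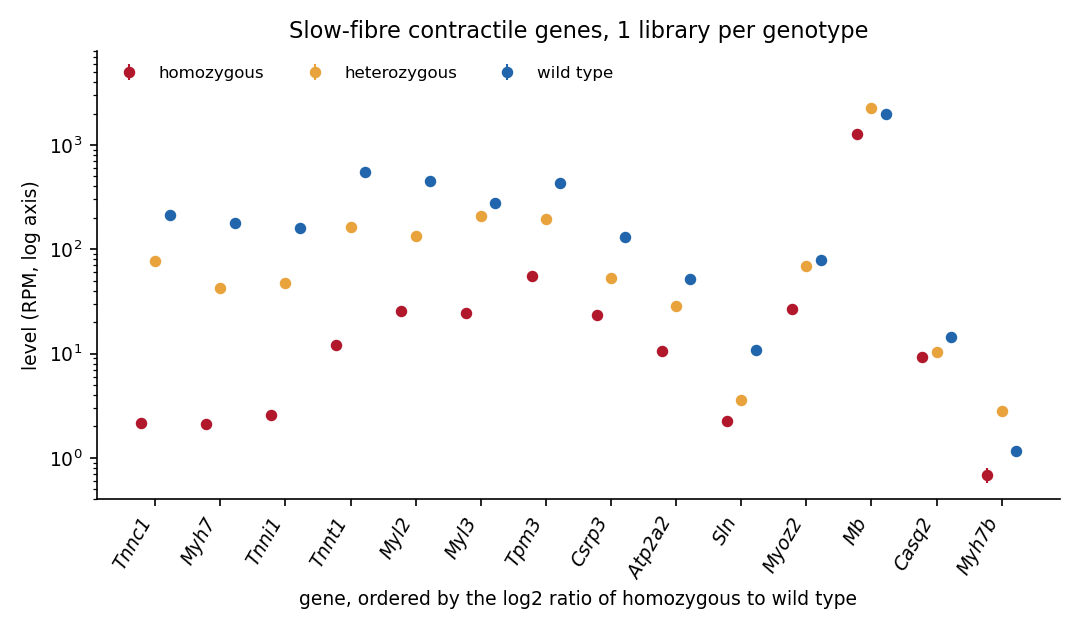
Levels of the 14 slow-fibre contractile genes in the homozygous, heterozygous and wild-type library (RPM, log axis), ordered by the ratio of homozygous to wild type, with exact Poisson 95% intervals that are mostly smaller than the points. In the 11 genes at the left from Tnnc1 to Myoz2 the homozygous point is lowest and the wild-type point highest, and the gap narrows from 99.5-fold at Tnnc1.

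The promoter of Tnnc1 is shown because this gene had the largest difference in level. It is the 250 bases before the RefSeq start, chr14:31208062-31208311, plus strand of GRCm38.p6. Capitals mark CATTCC on either strand (GGAATG on the strand shown), the M-CAT element that TEAD factors bind in many muscle genes.
Tnnc1 promoter: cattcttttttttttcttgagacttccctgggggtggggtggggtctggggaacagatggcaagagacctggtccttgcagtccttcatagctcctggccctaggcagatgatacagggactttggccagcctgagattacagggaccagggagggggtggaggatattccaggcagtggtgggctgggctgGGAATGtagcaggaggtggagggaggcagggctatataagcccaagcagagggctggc
The motif stood in 3 of 14 promoters listed for the 11 lower slow-fibre genes, in Tnnc1, Myl3 and Myh7. It stood in 12.6% of all 32851 promoters of the same length.

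Fast-fibre contractile genes stayed within 2-fold. All 16 listed were measured and 0 differed at least 2-fold, with a median log2 ratio of 0.23. Myh4, the myosin of the fastest fibres, had 15940.5 RPM in homozygous, 10389 in heterozygous and 13839 in wild-type muscle. Myh1 had 1486, 2094 and 1305 RPM in the same libraries. Myh2, the myosin of fast oxidative fibres, was the one member with a ratio under 0, at 333 RPM in homozygous, 681 in heterozygous and 538 in wild-type muscle (log2 ratio -0.69). In the slow-fibre list the most abundant gene of each library was Mb, which did not reach 2-fold and weighs most in that list's sum. Summed over each list, fast-fibre genes held 249997 RPM in homozygous, 189851 in heterozygous and 209360 in wild-type muscle, while slow-fibre genes held 1456, 3282 and 4553 RPM. Absolute differences pointed the same way: the 10 genes that gained most RPM in homozygous muscle were Tnnt3, Acta1, Aldoa, Gapdh, Tpm1, Pvalb, Tnni2, Atp2a1, Ckm and Myl1, all abundant genes of the contractile apparatus, calcium handling, glycolysis or creatine phosphate use and all within 1.5-fold. Tnnt3, the fast troponin T, alone held 51117.5 RPM in homozygous and 41530 in wild-type muscle (log2 ratio 0.30). After centring on the median gene the fast-fibre median was 0.40.

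Most genes of energy metabolism lay within 2-fold. Of 94 measured nuclear genes for oxidative phosphorylation, 0 differed 2-fold, and their median was -0.08, or 0.10 after centring. The 6 mitochondrially encoded protein genes measured were all below 0, between -0.57 and -0.42, and none reached 2-fold. Of 16 glycolytic and creatine kinase genes 0 were called, with a median of 0.24. Of 26 genes of fatty acid uptake and oxidation 4 were lower, near the 10% of all measured genes: the lipid-sensing receptors Pparg (-1.45) and Ppara (-1.27), lipoprotein lipase Lpl (-1.30), and the mitochondrial coactivator Ppargc1a at 7.62 RPM in homozygous, 25.7 in heterozygous and 17.2 in wild-type muscle. Pparg, at 4.65 RPM in homozygous and 14.4 in wild-type muscle, reached 5 RPM only in the latter, so this count is partly set by the minimum. In the sterol and fat synthesis list only Idi1 was lower, at -1.42, of 13 measured. Car3, the carbonic anhydrase of slow fibres and fat cells, was among the 10 genes that lost most RPM, with 1250 RPM in homozygous, 2472 in heterozygous and 3720 in wild-type muscle.

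Stretch-responsive and titin-linked genes went both ways. Of 21 measured, 4 were lower and 1 higher, beside 10% and 1.99% of all measured genes: Csrp3, Myom3 (-1.57), Fhl1 (-1.39) and Ankrd2 (-1.25) were lower, and Ankrd1, a titin-binding stress protein, was higher at 7.01 RPM in homozygous, 2.41 in heterozygous and 2.31 in wild-type muscle. Ankrd1 reached 5 RPM in homozygous and not in wild-type muscle, so the count of higher genes is partly set by the minimum. The remaining muscle lists held at most 2 called genes each. Of 26 calcium handling genes only Atp2a2 and Sln were lower, and the release channel Ryr1 stood at 873 RPM in homozygous and 788 in wild-type muscle. Hdac4, a denervation-induced corepressor, was the one call among 13 denervation and atrophy genes (49.6 RPM in homozygous, 34.8 in heterozygous and 24.1 in wild-type muscle), while the ubiquitin ligases Fbxo32 and Trim63 were at -0.06 and -0.34. Among 33 measured splicing regulators the one call was Rbm20 itself. No clock gene of 16, no glycogen gene of 13, no heat shock or immediate early gene of 16, no proteasome gene of 35 and no mitochondrial ribosomal gene of 71 differed 2-fold. Of 57 cytosolic ribosomal protein genes only Rps4l was lower. All of these muscle, regulatory and housekeeping lists had medians between -0.26 and 0.27.

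Many genes of connective tissue and of cell types other than muscle fibres were lower in the homozygous library. Of all measured genes 10% were lower and the median was -0.18, against which the lists here can be read. Of 21 measured extracellular matrix genes 8 were lower, with a median of -0.95, and after centring 4 were. Elastin (Eln) had 9.90 RPM in homozygous, 25.5 in heterozygous and 50.4 in wild-type muscle. Fbn1, the gene of the microfibril protein fibrillin-1, had 21.3, 42.2 and 65.7 RPM in the same libraries. Of 8 fibroblast markers 4 were lower, and the list summed to 1725 RPM in homozygous, 4328 in heterozygous and 3280 in wild-type muscle. Fat cell markers were lower for 5 of 12, summing to 3748, 10751 and 7745 RPM, with leptin (Lep) at 10.2, 24.1 and 47.3 RPM. Macrophage markers were lower for 5 of 8, with sums of 205, 538 and 427 RPM, and Schwann cell markers for 3 of 3. Endothelial and smooth muscle markers had 0 calls of 9 and of 8, with medians of -0.45 and -0.50. The part of these cell types in the lower gene levels was not tested. Of the heart muscle markers, Nppb and Nkx2-5 had 0 reads in homozygous and wild-type muscle, and the list summed to 10.6 RPM in homozygous, 9.998 in heterozygous and 33.2 in wild-type muscle.

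Immune genes went both ways. Of 14 measured interferon response genes 4 were lower and 1 higher, beside 10% and 1.99% of all genes, with a median of -0.65. Stat2, which carries the interferon signal to the nucleus, had 4.201 RPM in homozygous, 5.78 in heterozygous and 14.6 in wild-type muscle. Usp18, which dampens that signal, had 9.05, 9.19 and 3.39 RPM in the same libraries. Stat2 reached 5 RPM in wild-type and not in homozygous muscle, and Usp18 the reverse, so these counts are partly set by the minimum. Ighm, the heavy chain of IgM, had 146 RPM in homozygous, 105 in heterozygous and 367 in wild-type muscle. The T cell receptor subunit Cd3e had 5.34, 0.833 and 1.105 RPM, and it too reached 5 RPM in homozygous and not in wild-type muscle. Of 6 measured developmental muscle genes 0 were called, with the embryonic myosin Myh3 at 31.9 RPM in homozygous, 23.1 in heterozygous and 18.4 in wild-type muscle.

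**Figure D3:**
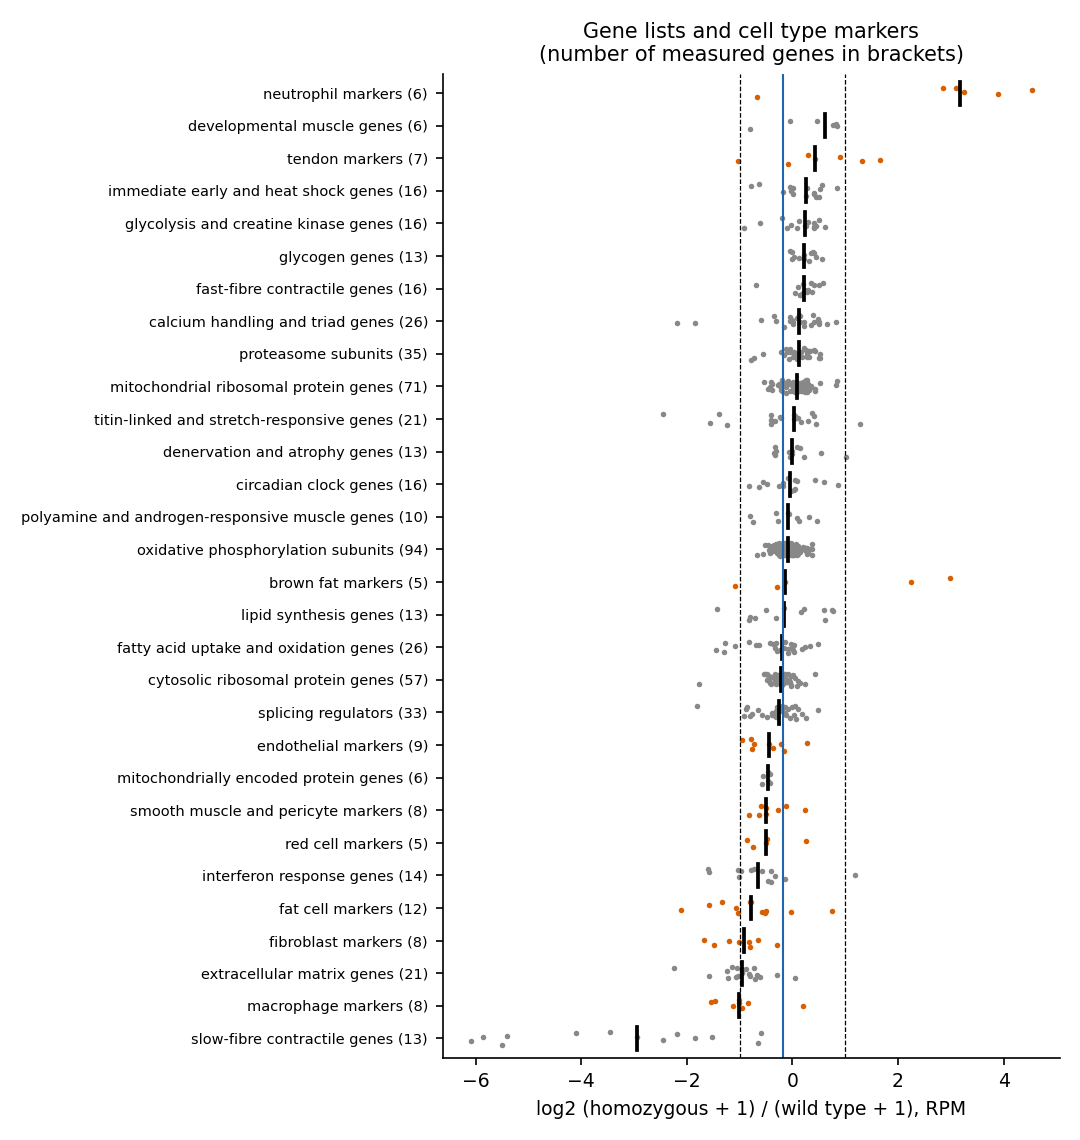
Log2 ratios of homozygous to wild type for each measured gene of each list with at least 5 measured genes. Grey points are gene lists and orange points are markers of other cell types, black bars are list medians, the blue line is the median of all 8847 genes (-0.18) and dashed lines mark 2-fold. The slow-fibre list stands at the bottom with a median of -2.95 and the 6 measured neutrophil markers, 5 of which passed the minimum in homozygous and not in wild-type muscle, at the top with 3.18.

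Of the 15 genes furthest above wild type, 10 are best known from neutrophils, bone, joints or brown fat. Of 11 neutrophil markers listed, 6 were measured. The 5 higher ones reached 5 RPM in homozygous but not in wild-type muscle, so their count is partly set by the minimum and only their values are given. S100a9, a subunit of the calprotectin complex of neutrophils, had 31.2 RPM in homozygous, 31.7 in heterozygous and 0.392 in wild-type muscle. Ngp, a granule protein, had 13.8 and 10.9 RPM in homozygous and heterozygous muscle and no read in wild-type muscle, where 3 counts would be 0.0125 RPM. Lactoferrin (Ltf) had 8.50 RPM in homozygous, 6.92 in heterozygous and likewise no read in wild-type muscle. The bone matrix gene Bglap had 14.1 RPM in homozygous, 22.2 in heterozygous and 0.0167 in wild-type muscle, from 4 reads. Prg4, the lubricant of joints and tendon sheaths, had 75.3, 133 and 9.75 RPM in the same libraries, and the tendon proteins Fmod (log2 ratio 1.33) and Chad (1.66) were also higher. Ucp1, the uncoupling protein of brown fat, had 7.25, 7.70 and 0.0375 RPM, and Cidea, a brown fat lipid droplet protein, had 15.4, 34.96 and 2.46 RPM. In each gene named here both knock-in libraries were high and the wild-type library low, as they were for S100a8, Camp and Bglap2. Neutrophil markers summed to 98.1 RPM in homozygous, 119 in heterozygous and 12.3 in wild-type muscle, and cartilage and bone markers to 23.2, 41.8 and 0.530 RPM. These sums include genes named above, so they are not a separate result. Bglap was the only cartilage and bone marker measured. In the tendon and brown fat lists the homozygous sum was not above the wild-type sum. The 7 measured tendon markers held 2 higher and 1 lower gene, and the list summed to 161 RPM in homozygous, 313 in heterozygous and 164 in wild-type muscle. The 5 measured brown fat markers held 2 higher and 1 lower gene, with a median of -0.13 and sums of 1536, 1935 and 1759 RPM in the same libraries. The 2 higher ones, Ucp1 and Cidea, reached 5 RPM in homozygous and not in wild-type muscle, so that count is partly set by the minimum. Whether blood, marrow or tendon in the tissue piece set these levels was not tested.

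Developmental transcription factors that mark body regions also differed. Six2, a homeobox gene of kidney and skull development, had 9.55 RPM in homozygous, 6.55 in heterozygous and 0.0500 in wild-type muscle. Tbx1, a T-box factor of head muscle development, had 37.97, 34.8 and 8.52 RPM (ratio 4.46, interval 4.25 to 4.68). Hoxd8 ran the other way, with 1.39 RPM in homozygous, 4.32 in heterozygous and 9.71 in wild-type muscle, and Hoxc6 had 1.61, 3.83 and 5.22 RPM. Six4, a homeobox gene of muscle development, had 10.3 RPM in homozygous, 4.17 in heterozygous and 4.30 in wild-type muscle. Tbx1, Hoxd8, Hoxc6 and Six4 were chosen after their values were seen. The muscle that each library came from is unknown, and its part in these values was not tested.

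The remaining genes at the ends of the ranking had varied roles. Ostn, the muscle hormone musclin, had 4.45 RPM in homozygous, 6.68 in heterozygous and 49.2 in wild-type muscle. Igfn1, an immunoglobulin-domain protein of the Z-disc, had 1.07, 7.13 and 14.3 RPM, and the blood cell phosphatase Ptpn6 had 0.741, 6.23 and 12.4 RPM. Cep112, a centrosome protein, had 0.130 RPM in homozygous, 9.50 in heterozygous and 9.08 in wild-type muscle. Mhrt, at -5.10, lies antisense to Myh7, and without a strand-aware count its reads cannot be told apart from those of Myh7. Gm29015, also among the 15 furthest down, lies inside the interval of Mhrt, so the same holds for it. The other two, 1700047G03Rik and Gpr137b-ps, are an unnamed transcript and a pseudogene. At the upper end Tssk6, a kinase of sperm, had 13.6 RPM in homozygous, 1.08 in heterozygous and 0.0876 in wild-type muscle, and the fatty acid hydroxylase gene Cyp4f39 had 5.61, 3.95 and 0.292 RPM. The histone gene H2ac14, with a log2 ratio of 2.13, belongs to a family of near-identical copies and is uncertain, and Gm44357, at 2.11, is a predicted gene. Among the genes that lost most RPM were mt-Rnr2, a mitochondrial ribosomal RNA, at 6895 RPM in homozygous and 10962 in wild-type muscle, mt-Co1, Lars2, the beta-globin Hbb-bs and 5 unnamed or predicted transcripts.

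Exon use was compared by percent spliced in (PSI), which sets the inclusion reads of a part against the reads that skip it. Inclusion reads were divided by the length of the part plus a fixed length, and exclusion reads by that fixed length, which was inferred from the deposited values. Dividing inclusion reads by the part length alone gave 2177 called parts, 867 higher and 1310 lower. Parts with at least 100 reads in both libraries numbered 85278 in 12469 genes, and 64.2% of them had no exclusion read in either library. A difference of 20 percentage points or more was found in 1798 parts (2.11%), of which 868 were higher (1.02%) and 930 lower (1.09%) in homozygous muscle. They lay in 1068 genes (8.57% of genes measured), 773 of which had a single such part. Exclusion reads were absent from one of the libraries in 33.1% of the called parts, so these rest on a junction seen in one library and not in the other. Of the parts called, 401 lay in multicopy families or predicted genes. A stricter set, chosen after the data were seen, asked for at least 20 inclusion and 20 exclusion reads in both libraries and a supported junction (exclusion reads per base of at least 5% of the gene's own level). In that set 653 of 7911 parts (8.25%) differed, 289 higher and 364 lower, in 385 genes.

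Level and exon use were also set side by side for genes measured both ways. Genes called lower in level held a called part in 7.68% of 755 cases and genes called higher in 9.80% of 153, beside 10.6% of the 7714 others, which also had more measured parts (a median of 7, against 2 in each of the called groups).

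The most deeply read exchange of exons described here was in Tnnt3, which codes the fast-fibre troponin T and ends with a choice between 2 mutually exclusive exons. The pair is printed in the plus-strand orientation of GRCm38, because the choice replaces one stretch of the protein by the other, and capitals mark the 23 of 41 bases that differ between them.
Tnnt3 exon at chr7:142513665-142513705: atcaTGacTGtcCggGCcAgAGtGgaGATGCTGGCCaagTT
Tnnt3 exon at chr7:142514326-142514366: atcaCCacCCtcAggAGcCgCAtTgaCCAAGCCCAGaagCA
The downstream exon was at 72.9% (72.8 to 73.0) in homozygous, 74.1% in heterozygous and 52.7% (52.6 to 52.8) in wild-type muscle, a difference of 20.2 points between homozygous and wild type. The upstream exon was at 29.3% in homozygous, 28.2% in heterozygous and 49.3% in wild-type muscle, just short of the 20-point limit at -19.99. The 2 values add to 102% in each library, and at least 520867 reads stood behind each. Both knock-in libraries favoured the downstream exon, and the wild-type library used the pair nearly evenly.

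Nebulin, which spans the thin filament, is coded by Neb, with a similar pair of 105-base exons on the minus strand of chromosome 2. Their exchange was larger, and they are shown as transcribed, with the 65 bases that differ in capitals.
Neb exon at chr2:52186012-52186116: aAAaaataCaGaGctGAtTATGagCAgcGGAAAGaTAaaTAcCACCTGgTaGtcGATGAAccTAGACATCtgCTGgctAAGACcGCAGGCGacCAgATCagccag
Neb exon at chr2:52185271-52185375: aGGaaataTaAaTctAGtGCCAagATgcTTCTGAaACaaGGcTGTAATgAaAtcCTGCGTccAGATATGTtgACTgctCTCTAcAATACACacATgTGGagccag
The exon nearer the 3′ end was at 93.4% (92.4 to 94.3) in homozygous, 92.6% in heterozygous and 55.7% (53.7 to 57.6) in wild-type muscle. Its partner was at 8.85% in homozygous, 6.43% in heterozygous and 46.2% in wild-type muscle. Again the knock-in libraries lay close together and wild type stood apart, with sums of 102% in homozygous, 99.1% in heterozygous and 102% in wild-type muscle. Outside the pair, Neb held 20 more called parts. Much of the gene is built of repeats, and reads from exons that resemble each other can be placed in the wrong copy. A run of 3 of them between 52308485 and 52310645 rested on 736 exclusion reads in homozygous muscle and none in the other libraries.

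**Figure D4:**
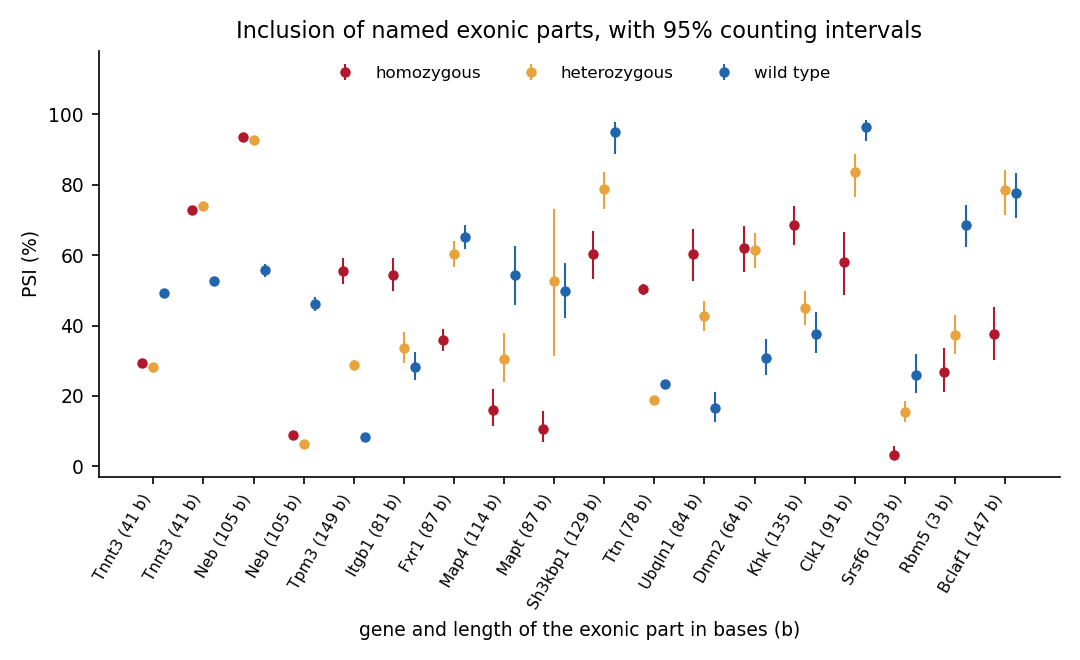
PSI (percent) of 18 exonic parts in the homozygous, heterozygous and wild-type library, with 95% counting intervals; labels give the gene and the length of the part. For the pairs of Tnnt3 and Neb the homozygous and heterozygous points lie together and the wild-type points apart, while for Tpm3, Map4, Ubqln1 and Clk1 the heterozygous point lies between the other two.

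Tpm3 was both far lower in level and differently spliced. Its 149-base coding part at 90079715 to 90079863 on chromosome 3 was at 55.5% (51.7 to 59.3) in homozygous, 28.8% in heterozygous and 8.47% in wild-type muscle. The 200-base part at 90091931 to 90092130 ran the other way, at 31.9% in homozygous, 50.5% in heterozygous and 78.4% in wild-type muscle. The gene makes muscle and non-muscle tropomyosins from alternative exons, and its level was 7.85-fold lower in homozygous muscle. Atp2a2, also scarce in homozygous muscle, had a 963-base coding part at 48.5% in homozygous, 46.1% in heterozygous and 21.3% in wild-type muscle.

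RBM20 has a set of known heart targets, and 14 of the 34 measured here (41.2%) held a called part, 5 with higher parts only, 5 with lower only and 4 with both. All genes together gave 8.57%. The share grew with the number of parts in a gene: among genes with 21 to 40 measured parts the share was 19.5%, and with more than 40 it was 34.7%. The median of the largest difference in each gene was 14.8 points for this list. Of 391 measured Ttn parts, 15 were higher, all coding and between 20.3 and 26.8 points apart. Another 8 were lower, 7 of them coding, with differences between -27.6 and -20.1 points. Over all measured parts, 1.02% were higher and 1.09% lower. The mean PSI of the Ttn parts was 69.7% in homozygous, 77.9% in heterozygous and 70.1% in wild-type muscle. The 78-base Ttn exon at chromosome 2, 76827483 to 76827560, was at 50.2% in homozygous, 18.9% in heterozygous and 23.4% in wild-type muscle. Lmo7, a cytoskeletal adaptor, had a 720-base coding part at 100% in homozygous and heterozygous and 31.2% in wild-type muscle, where all 81 of its exclusion reads were found. Sh3kbp1, an endocytic adaptor, had a 129-base exon at 60.2% in homozygous, 78.9% in heterozygous and 94.9% in wild-type muscle. Camk2d, the calcium-dependent kinase often named with Ttn, had its 42-base exon at 35.5% in homozygous, 12.2% in heterozygous and 18.8% in wild-type muscle, 16.7 points apart and short of a call.

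Of 48 measured sarcomere genes 12 held a called part (25%), beside 8.57% of all genes and 19.5% of genes with 21 to 40 parts, with a median largest difference of 5.67 points. The widest was Mybpc2, the fast form of myosin-binding protein C, where 16 consecutive parts from 44507035 to 44517004 on chromosome 7 were higher in homozygous muscle. Its 133-base exon at 44516383 to 44516515 was at 99.9% in homozygous, 91.1% in heterozygous and 51.1% in wild-type muscle. The inclusion reads of that exon were 6426, 5858 and 6240 and the exclusion reads 2, 283 and 2958, so the libraries differed in exclusion reads. In 12 of the 16 parts the wild-type count of exclusion reads was the same 2958, so these parts are not independent of each other. Nrap, a scaffold of growing myofibrils, went the other way: 7 called parts shared 148 exclusion reads in homozygous muscle that were absent in both other libraries. The exon at 56344012 to 56344125 on chromosome 19 was at 61.3% in homozygous and 100% in heterozygous and wild-type muscle. The myosin genes Myh13, Myh8 and Myh3, which are not in the list, held parts that were 43.9 points lower, 29.8 higher and 24.9 higher, and share long stretches of sequence with their neighbours, which makes these values uncertain.

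**Figure D5:**
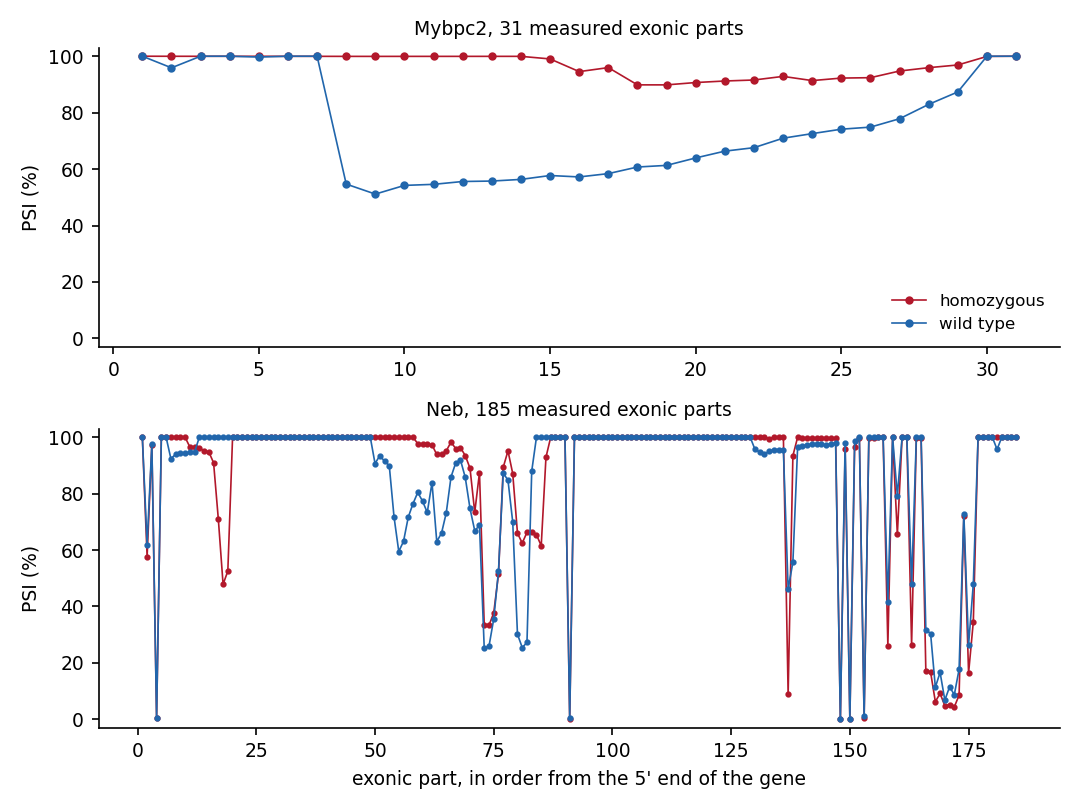
PSI (percent) of every measured exonic part along Mybpc2 (31 parts) and Neb (185 parts), from the 5′ to the 3′ end, in homozygous and wild-type muscle. In Mybpc2 a block of consecutive parts falls to 51.1% in wild type and stays between 89.8% and 100% in homozygous muscle; in Neb the libraries part ways in the repeat region and at the 105-base pair.

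Adhesion and cytoskeleton genes held called parts in 15 of 42 cases (35.7%), beside 8.57% of all genes, 13.0% of genes with 11 to 20 parts and 19.5% of those with 21 to 40, with a median largest difference of 11.5 points. Most were lower, 9 genes with lower parts only against 4 with higher only. A higher one was in Itgb1, the beta-1 integrin subunit that anchors fibres to the matrix. Its 81-base exon codes the tail of the muscle form of the protein, beta-1D, and is shown in lower case throughout because it changes the protein's end. It lies on the plus strand of GRCm38.
Itgb1 exon at chr8:128726983-128727063: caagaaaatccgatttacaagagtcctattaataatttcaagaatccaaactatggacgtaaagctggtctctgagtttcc
This exon was at 54.4% (49.8 to 59.0) in homozygous, 33.6% in heterozygous and 28.3% (24.6 to 32.3) in wild-type muscle, 26.1 points higher (19.9 to 32.01). Map4, a microtubule-associated protein, had a coding exon at 15.9% in homozygous, 30.5% in heterozygous and 54.3% in wild-type muscle. Tln1, which links integrins to actin, had a 184-base part at 100%, 100% and 64.5%, with its 22 exclusion reads in wild type alone. Itga7, the integrin that pairs with beta-1 in muscle, held 8 lower parts that share 22 or 41 exclusion reads in homozygous muscle, among them a 129-base exon at 73.0% in homozygous, 100% in heterozygous and 97.7% in wild-type muscle. A part of Sorbs2 was at 87.4%, 83.5% and 28.8%, one of Clasp2 at 20.04%, 78.8% and 100%, and one of Ank3 at 83.65%, 34.8% and 38.98%, where the heterozygous value of Ank3 rests on 26 inclusion and 23 exclusion reads. The part in Sorbs2 does not match an exon of GENCODE M21, and those in Clasp2 and Ank3 belong to retained-intron transcripts only.

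Of 38 genes whose splicing is known to shift in muscle after birth, 8 held a called part (21.1%), near the 19.5% of genes with 21 to 40 parts, 4 with higher parts only, 3 with lower only and 1 with both. Fxr1, an RNA-binding protein with muscle isoforms, had an 87-base coding part at chromosome 3, 34058082 to 34058168, at 35.9% (32.8 to 39.1) in homozygous, 60.3% in heterozygous and 65.2% (61.6 to 68.6) in wild-type muscle. Rapgef1, an exchange factor of small GTPases, had a coding exon at 24.7%, 44.4% and 63.8% in the same libraries. The muscle transcription factor Mef2d had a coding exon at 30.1%, 32.2% and 43.03%, 12.9 points apart and below the limit. The chloride channel Clcn1 held a 562-base part of retained-intron transcripts at 39.7% in homozygous, 0% in heterozygous and 13.9% in wild-type muscle. Calcium and triad genes held a called part in 4 of 30 cases (13.3%), beside 8.57% of all genes, and 6 of their 9 higher parts lay in Srl, the gene of the calcium-binding protein sarcalumenin. A 3-base part of Srl was at 96.8%, 93.7% and 52.8%, and 3 further parts shared 3 exclusion reads in homozygous, 54 in heterozygous and 132 in wild-type muscle. Metabolic genes held a called part in 3 of 31 cases (9.68%), close to the 8.57% of all genes. One was Mpc1, the mitochondrial pyruvate carrier, with a 77-base part at 100% in homozygous, 0.884% in heterozygous and 1.49% in wild-type muscle. Not a single read that skips this part was counted in homozygous muscle, against 20194 in heterozygous and 16686 in wild-type muscle. Reads that include it differed far less (348 in homozygous, 286 in heterozygous, 401 in wild type). The value of 100% therefore rests on 1 junction without a count in 1 library.

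Splicing regulators held a called part in 11 of 43 cases (25.6%), 5 with higher parts only and 6 with lower only. The share was 8.57% over all genes and 19.5% over genes with 21 to 40 parts. Genes of this kind often make non-coding transcripts or retain introns as a way of limiting their own protein. Clk1, a kinase of splicing factors, had its 91-base coding exon at 57.9% (48.7 to 66.7) in homozygous, 83.5% in heterozygous and 96.4% (92.4 to 98.3) in wild-type muscle, and the neighbouring retained intron part at 47.8%, 37.6% and 78.5%. In Srsf6, an SR protein, a non-coding part was at 3.19% in homozygous, 15.4% in heterozygous and 26.1% in wild-type muscle. A 62-base part of Srsf10 was at 41.9%, 56.5% and 71.8%, a 60-base part of the U1 protein gene Snrnp70 at 18.99%, 34.9% and 53.02%, and a 3-base part of Rbm5 at 26.8%, 37.2% and 68.6%. In these parts of Srsf6, Srsf10, Snrnp70 and Rbm5 the heterozygous library lay between the others. Celf2, an RNA-binding splicing factor, had a 1692-base part of non-coding transcripts that was higher, at 100%, 22.3% and 13.7%, with no exclusion read in homozygous muscle.

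Parts of non-coding transcripts were called lower more often than higher in homozygous muscle, retained introns among them. Among 7546 parts that belong to retained-intron transcripts alone, 173 were lower (2.29%) and 79 higher (1.05%), and their mean PSI was 5.87% in homozygous, 5.52% in heterozygous and 6.97% in wild-type muscle. In the stricter set the counts were 74 lower and 25 higher of 1980. Most of these parts were not called, and their median difference was 0. Parts of nonsense-mediated decay transcripts alone had 10 lower and 6 higher of 695. Other parts held only by processed, retained-intron or nonsense-mediated decay transcripts had 67 lower and 42 higher of 3446. Parts held by the remaining transcript types, none labelled protein-coding, had 74 lower and 52 higher of 3452. These classes describe the transcripts that hold a part and not the gene. Coding parts had 420 lower and 541 higher of 57050. Reads in these retained-intron parts made up 4920 RPM in homozygous, 5178 in heterozygous and 5787 in wild-type muscle. Their relation to unspliced RNA in the samples was not tested. Among stand-alone coding exons in the stricter set, 56.98% of the 86 higher ones and 46.8% of the 62 lower ones had a length that is a multiple of 3, beside 53.04% of all 1086 such exons.

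Ranked over all genes by the bound of the difference nearest 0, the 25 leading parts lay mostly in multicopy families (Mup, Serpinb6, H2, Ces1 and histone genes), predicted genes and pseudogenes, and their values are uncertain. The rest included an untranslated part of Atp6v0c, a proton pump subunit, at 19.1% in homozygous, 50.6% in heterozygous and 100% in wild-type muscle, and a retained intron of Nudt5 at 10.2%, 24.5% and 100%. Atp1a4, a sodium pump subunit of sperm, had an exon at 100% in homozygous and heterozygous and 0% in wild-type muscle. Its inclusion reads were 392 in homozygous, 561 in heterozygous and 0 in wild-type muscle, and its exclusion reads 0, 0 and 341. No library held reads for both forms of this exon, so its values too are uncertain. Further exons with reads for both forms in both libraries, chosen after their values were seen, were in Ubqln1, a shuttle to the proteasome, at 60.3% (52.6 to 67.5) in homozygous, 42.7% in heterozygous and 16.4% (12.6 to 21.2) in wild-type muscle, and in the membrane fission gene Dnm2 at 62.1%, 61.5% and 30.9%. Mapt, the microtubule protein tau, had an 87-base exon at 10.6%, 52.7% and 49.9%. Khk, the fructose kinase, had a 135-base exon at 68.6%, 44.8% and 37.7%. Bclaf1, a nuclear protein of RNA processing, had a 147-base exon at 37.5%, 78.5% and 77.6%. For Khk and Bclaf1 the heterozygous value lay near wild type, and for Dnm2 near homozygous. The heterozygous Mapt value rests on 13 inclusion and 7 exclusion reads (interval 31.4 to 73.1). Over the 1643 called parts with at least 100 reads in all 3 libraries, the heterozygous PSI was nearer homozygous in 810.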

How the data were processed

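The authors deposited, per the file headers, raw counts of inclusion and exclusion reads and a PSI fraction for each exonic part. Per the labels' protocols, total RNA was made into libraries with a SMART-seq low-input kit and Nextera XT and run on a NovaSeq instrument. Per the submitters' processing notes, cutadapt 1.1, Trimmomatic 0.32, TopHat2 2.0.14, Bowtie 1.1.1 and GRCm38 were used; no counting program, annotation or strand setting is named in these sources. PSI was recomputed from the counts and equalled the deposited fraction within 5e-07. Merged overlapping genes (1405 groups, 40250 parts) counted in library totals only.

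Level ratios use RPM plus 1. Intervals are exact Poisson (levels), exact conditional binomial (ratios), Wilson (PSI) and Newcombe (differences). Gene-level calls, ratio intervals and PSI intervals were tested on simulated data. PSI calls, difference intervals and the intervals of single levels were not. Parts were annotated with GENCODE M21. The members, lists and named-gene rule were chosen with earlier results of these data known. By that rule the text names the 15 genes furthest up and the 15 furthest down, the 10 with the largest RPM gain and loss, 4 genes of each level list, the 25 top-ranked parts (1 per gene) and 3 of each splicing list, with some of these given here only within counts. Other exonic parts shown were chosen after their values were seen. Motifs beside exons were not analysed, since no genome sequence of the build was used here. The computations used scipy 1.17.1 with numpy 2.4.6 and pandas 2.3.3 under Python 3.11.15. No other column of per-sample values was present (0). Some genes are not reported here.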

Additional observations from a re-analysis of the deposited data

How the results depend on the processing

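With 1 library for each genotype the depth sets only the counting error, and the animal, muscle and library stay joined to the genotype. No paired analysis was possible because each genotype has 1 library and the labels give no shared replicate numbers. The 1065 genes called by level became 1964 with a minimum of 1 RPM, 253 with 20 RPM, 1948 with the median over a gene's parts, 104 at 4-fold and 2718 at 1.5-fold; lower genes stayed the majority in each. The medians of the slow-fibre list ran from -3.12 to -2.70 and those of the fast-fibre list from 0.23 to 0.40. The 1798 parts called became 9885 with 10 reads, 3718 with 50, 316 with 500, 4903 at 10 points, 825 at 30 points, 1068 with 1 part per gene, 1148 without PSI of exactly 0 or 100%, and 653 with both forms read in both libraries. With 500 reads 46.5% of called parts were lower, against 51.7% at 100 reads. With 10 reads the genes with a called part became 24 of the RBM20 heart targets, 14 calcium and triad genes, 28 adhesion and cytoskeleton genes, 17 postnatally regulated genes, 9 metabolic genes and 23 splicing regulators. A wider or narrower threshold admits more or fewer features by construction; for the median over parts the cause was not tested. Of 57 alternative medians of the other 19 level lists, 12 changed sign, among them the centred medians of the denervation, polyamine, clock, lipid synthesis and oxidative phosphorylation lists. The stricter set and the sets without multicopy families (976 genes and 1397 parts) were chosen after seeing the data.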
